A study of Mus musculus with 18 samples.

Results

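Glucocorticoids act on T cells through a nuclear receptor, and 6 genes of that response are described here across regulatory T (Treg) cells of 6 sites of the mouse body. They are Nr3c1, which encodes the glucocorticoid receptor, and Tsc22d3, Fkbp5, Sgk1, Ddit4 and Txnip, which are widely used as transcriptional readouts of the hormone. They were chosen by name, as 6 of the 55487 Ensembl genes in the expression tables, and each matched 1 gene ID. Treg cells restrain immune responses and are defined among CD4+ cells by the factor Foxp3. Poly(A) RNA was measured in wild-type mice given no treatment, in Treg cells sorted fresh from peripheral blood, lung, liver, bone marrow, spleen and lymph node. Each site had 3 libraries, 18 in all, and no group received a steroid, so the comparison is between sites. The labels give no age, sex, sorting gate or number of animals per library. Nothing states that the 3 libraries of a site came from separate animals, so p-values measure only the spread between these libraries, which may be technical.

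In the absence of hormone the glucocorticoid receptor is held in the cytoplasm by a complex of the chaperone Hsp90 with co-chaperones, among them the immunophilins Fkbp4 and Fkbp5. Corticosterone, the main glucocorticoid of the mouse, frees the receptor to enter the nucleus, where it binds paired half-sites in DNA as a dimer and also acts through other transcription factors. Fkbp5 is itself induced and lowers the receptor's affinity for hormone, a negative feedback. In T cells the hormone is known for damping inflammatory gene expression and for promoting death of immature and resting cells. Sgk1, Ddit4 and Txnip also respond to other signals, among them osmotic stress, low oxygen, growth factors and glucose.

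The canonical binding element of the receptor is the half-site AGAACA, read as TGTTCT on the other strand, and its palindrome with 3 bases between the half-sites. The 250 bases upstream of each annotated RefSeq transcription start (assembly GRCm38.p6) were searched on both strands. Sgk1 had 6 such windows, Tsc22d3 had 3, and Fkbp5, Ddit4 and Txnip had 1 each. The full palindrome was present in 3 of 32817 windows in the mouse table (0.00914%), and 1 of these 3 belonged to Sgk1. That window is at chr10:21993640-21993889 on the plus strand, inside the Sgk1 gene ahead of one of its internal starts, and overlaps no annotated exon. It is shown because it holds the element; capitals mark half-sites, and the palindrome itself lies at chr10:21993701-21993715, from 189 to 175 bases before the start.
Sgk1 upstream window: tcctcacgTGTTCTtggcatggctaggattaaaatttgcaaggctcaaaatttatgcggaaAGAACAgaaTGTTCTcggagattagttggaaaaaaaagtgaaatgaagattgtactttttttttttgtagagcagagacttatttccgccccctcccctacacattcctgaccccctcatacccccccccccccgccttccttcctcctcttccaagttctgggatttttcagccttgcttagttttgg
The single half-site is common: 16.1% of all windows held it. A half-site lay in 3 of the 6 Sgk1 windows and in 1 of the 3 Tsc22d3 windows, and the windows of Fkbp5, Ddit4 and Txnip held no such letters. The printed Sgk1 window also holds 1 E-box (CACGTG).

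The Txnip window is shown beside it as the upstream sequence of a gene controlled by glucose sensing and by forkhead factors. It lies at chr3:96557707-96557956 on the plus strand and falls within an exon of Gm15441, a noncoding gene on the opposite strand. Capitals mark 2 CCAAT boxes (CCAAT, or ATTGG on the other strand) and 1 forkhead motif (GTAAACA). No exact E-box (CACGTG) was present, and looser matches were neither searched nor marked.
Txnip upstream window: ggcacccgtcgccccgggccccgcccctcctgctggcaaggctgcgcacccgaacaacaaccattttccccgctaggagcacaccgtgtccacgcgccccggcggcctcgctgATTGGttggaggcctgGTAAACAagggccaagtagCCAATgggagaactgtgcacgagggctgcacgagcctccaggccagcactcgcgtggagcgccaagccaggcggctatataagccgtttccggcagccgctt
The CCAAT box was present in 33.8% of all windows and the forkhead motif in 3.16%. Fkbp5 had 1 E-box (in 6.02% of all windows) and 2 CCAAT boxes in its window, and Ddit4 had 2 CCAAT boxes. These matches describe letters in the chosen windows and say nothing of binding in these cells.

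The libraries matched their sorted cell type in part. All 20 general T cell genes averaged 1 TPM or more in every site, and Foxp3 averaged 88.6 TPM in blood and between 139.7 and 238.5 TPM elsewhere. TPM is a gene's share of a library's transcripts, corrected for transcript length. The 8 Treg genes summed to 597 TPM in blood and to between 1129.5 and 3447.1 TPM in the organs. The summed level of the 20 T cell genes was 3391 TPM in blood against 5206 to 7884 TPM in the other sites. All 14 neutrophil and monocyte markers averaged 1 TPM or more in blood, bone marrow, lung and spleen, 12 did in liver and 8 in lymph node. Their sum was 27026.2 to 28018.4 TPM in the blood libraries and 48061.1 to 48412.8 TPM in the marrow libraries. The same sum was 1654.2 to 1771.8 TPM in lung, 665 to 848 TPM in spleen, 194 to 404 TPM in liver and 35.4 to 85.7 TPM in lymph node. Platelet markers summed to 2809 TPM in blood and to at most 77.2 TPM elsewhere. A list of 12 immediate early and heat shock genes summed to 9407 TPM in liver, 7039 TPM in bone marrow, 3764 TPM in lung, 2994 TPM in blood, 1115 TPM in spleen and 781 TPM in lymph node. In bulk RNA of this kind, fewer cells of a type and less RNA per cell cannot be told apart. Differences of the 6 genes are therefore also given, where their direction or call changes, after scaling every library to the same level of the 20 T cell genes; this divided blood values by 0.602 to 0.626 and moved the median gene of the blood contrasts upward by 0.48 to 0.91 on the log2 scale. The share of calls that were higher in blood, 41.0% to 60.5% as deposited, became 83.5% to 97.0%; with median-ratio scaling it moved from 41.0% to 59.4% against bone marrow and from 43.9% to 64.5% against lymph node. TPM keeps no sequencing depth; between 14314 and 19797 genes were above 0 per library.

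All 6 genes differed among the 6 sites, but they did not share a pattern. The lung held the most Nr3c1 and Sgk1, blood the most Tsc22d3 and Txnip, the liver the most Ddit4 and bone marrow the most Fkbp5. The ratio of the highest to the lowest site mean was 17.3 for Sgk1, 5.38 for Nr3c1, 5.24 for Ddit4, 4.03 for Tsc22d3, 3.99 for Txnip and 2.41 for Fkbp5. In limma's moderated F test on log2(TPM + 1), the adjusted p ranged from 2.27e-13 for Tsc22d3 to 0.00101 for Fkbp5. The F test called 68% of the 16694 genes tested at an adjusted p under 0.05, so 6 of 6 is read against that share. Without the blood and bone marrow libraries, 5 of the 6 were called, and Fkbp5 had an adjusted p of 0.0521.

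**Figure D1:**
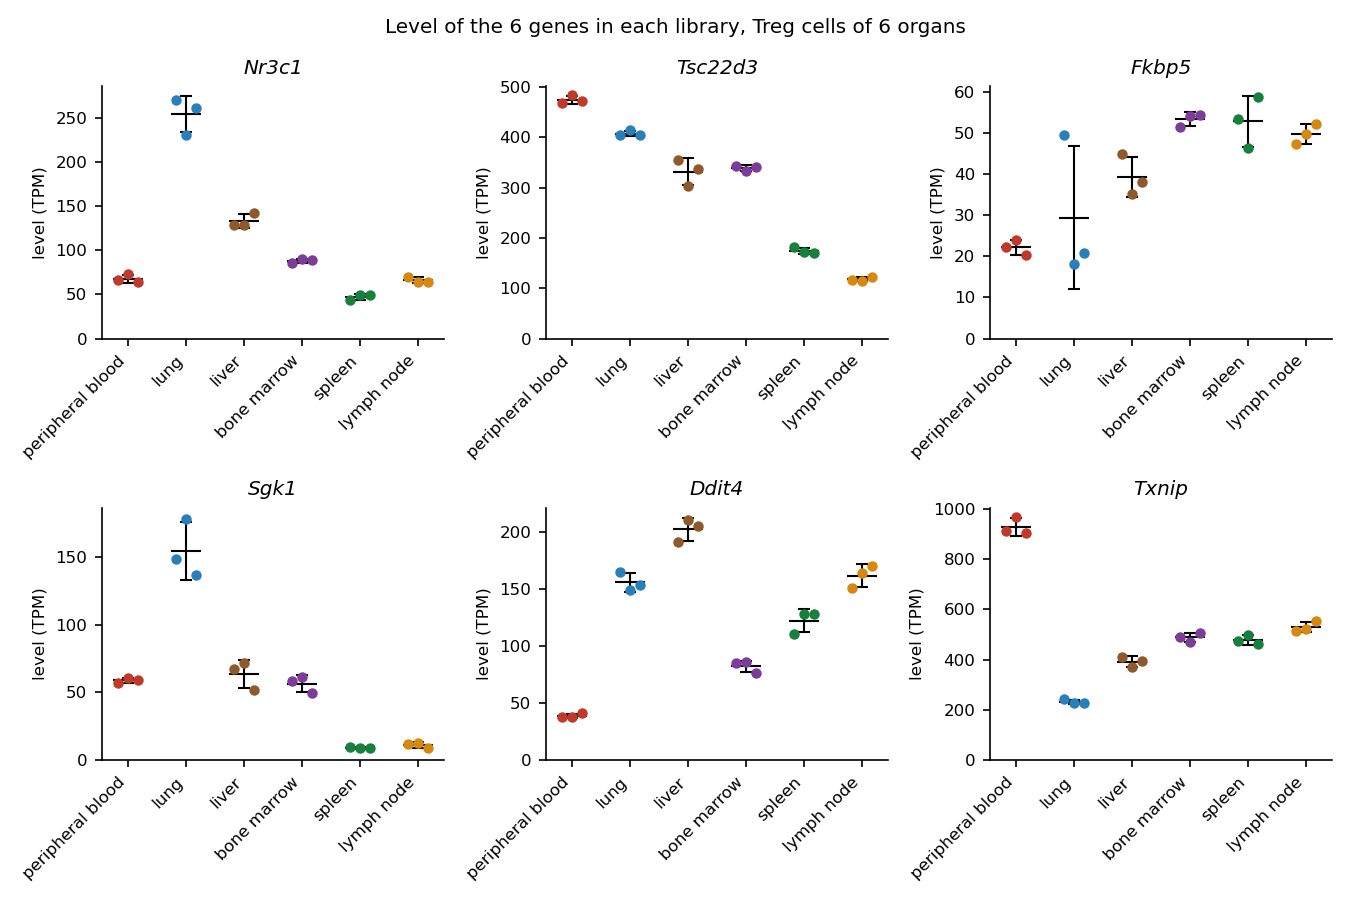
Level of each of the 6 genes (TPM, linear axis from 0) in every library, grouped by site; points are libraries and black bars the mean and SD of 3. Blood is highest for Tsc22d3 and Txnip and lowest for Ddit4, lung is highest for Nr3c1 and Sgk1, and 1 lung library stands above the other lung libraries for Fkbp5.

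Nr3c1 encodes the receptor through which the hormone acts on the other 5 genes (GRCm38 chr18:39410545-39519421, minus strand, 9 annotated transcripts). The lung libraries held 271, 231 and 262 TPM, a mean of 255 ± 20.6 (SD, n = 3, as for every mean below). The liver libraries held 129, 129 and 143 TPM (133 ± 8.20) and the bone marrow libraries 85.7, 89.8 and 89.6 TPM (88.4 ± 2.30). These groups did not overlap with each other or with any of the remaining 3 sites. The blood libraries held 66.0, 73.3 and 64.6 TPM (68.0 ± 4.67), the lymph node libraries 70.1, 64.4 and 63.8 TPM (66.1 ± 3.48) and the spleen libraries 43.4, 49.4 and 49.2 TPM (47.3 ± 3.38). Blood and lymph node overlapped, and spleen lay below every other library. Each step down this order passed the test except blood against lymph node. Lung exceeded liver by 0.93 on the log2 scale (SE 0.08, adjusted p = 3.11e-07), liver exceeded bone marrow by 0.59 (3.57e-05), bone marrow exceeded blood by 0.38 (0.00186) and lymph node exceeded spleen by 0.47 (0.000823). Blood minus lymph node was 0.04 (SE 0.08, adjusted p = 0.773).

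The place of blood in the Nr3c1 order depended on the scale. After scaling to T cell genes, blood held 111 ± 5.60, close to liver at 112 ± 7.92 and above bone marrow at 96.0 ± 1.89. The difference between blood and bone marrow then changed sign, from -0.38 to 0.21 (adjusted p = 0.0465), that between blood and liver was -0.02 (0.881), and that between blood and lymph node was 1.17 (3.22e-09). With median-ratio scaling, blood minus bone marrow was -0.18 and no longer called (adjusted p = 0.109), and blood exceeded lymph node by 0.28 (0.0148). Lung stayed highest and spleen lowest under both scalings. The step from spleen to lymph node was not called after scaling to T cell genes, with a difference of -0.21 (adjusted p = 0.118).

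Tsc22d3 encodes GILZ, a leucine zipper protein that binds NF-κB and AP-1 subunits and is a direct target of the receptor (chrX:140539528-140600659, minus strand). Its order was unlike that of the receptor. The blood libraries held 469, 484 and 472 TPM (475 ± 7.74), and the lung libraries 404, 414 and 404 TPM (408 ± 5.65). Bone marrow held 344, 333 and 342 TPM (339 ± 5.44), and liver 356, 303 and 336 TPM (332 ± 26.9). Spleen held 181, 172 and 169.6 TPM (174 ± 6.35), and lymph node 117, 115 and 122 TPM (118 ± 3.82). Blood stood above every organ library, bone marrow and liver overlapped, and spleen and lymph node lay below all other sites without overlap.

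Blood exceeded lung in Tsc22d3 by 0.22 on the log2 scale (SE 0.05, adjusted p = 0.00313) and lymph node by 2.00 (SE 0.05, adjusted p = 1.61e-13). Lung exceeded bone marrow by 0.26 (adjusted p = 0.000824), liver exceeded spleen by 0.92 (2.84e-09) and spleen exceeded lymph node by 0.56 (4.2e-06). Bone marrow and liver differed by 0.04 (adjusted p = 0.646), a difference that took the other sign with median-ratio scaling. After scaling to T cell genes, blood held 776 ± 2.96 against 417 ± 9.95 in lung, and bone marrow exceeded liver by 0.40 (adjusted p = 3.39e-05). Lung minus liver was 0.30 in the model of all libraries (adjusted p = 0.000402), with an adjusted p of 0.0582 when only those 6 libraries were fitted. The 4 sites with the most Tsc22d3 were also those with the higher sums of the immediate early and heat shock list. The part of that list, and of the myeloid markers in blood and marrow, in the Tsc22d3 result was not tested.

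Fkbp5 encodes FKBP51, the co-chaperone that closes the feedback loop on the receptor (chr17:28399094-28517527, minus strand). It had the smallest ratio between sites of the 6 genes and, like Ddit4, its lowest mean in blood. Bone marrow held 51.4, 54.2 and 54.5 TPM (53.4 ± 1.72), spleen 53.5, 46.3 and 58.7 TPM (52.9 ± 6.25), and lymph node 47.2, 49.8 and 52.2 TPM (49.7 ± 2.47). These sites overlapped. Liver held 44.8, 35.3 and 38.1 TPM (39.4 ± 4.90), lung 49.5, 18.1 and 20.7 TPM (29.4 ± 17.4) and blood 22.2, 24.0 and 20.3 TPM (22.2 ± 1.85). At 49.5 TPM, lung library 1 stood far above the other lung libraries, so the lung mean describes none of them.

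No step between neighbours in the Fkbp5 order passed the test, with adjusted p from 0.107 to 0.991, and 7 of the 15 pairs of sites were called. Blood lay below bone marrow by 1.23 on the log2 scale (log2 difference -1.23, SE 0.25, adjusted p = 0.00122), below spleen (-1.21, 0.00114), below lymph node (-1.13, 0.00189) and below liver (-0.80, 0.0186). The call against liver was lost without liver library 1 (adjusted p = 0.0616) or blood library 3 (0.0635). Blood minus lung was -0.25 (adjusted p = 0.454) and changed sign without lung library 1 (0.18, adjusted p = 0.258). Without that library, lung lay below liver (-0.98, adjusted p = 3.13e-05), and liver lay below bone marrow (-0.44, 0.00677), spleen (-0.42, 0.00999) and lymph node (-0.34, 0.0314). Lung lay below lymph node by -0.88 with all libraries (adjusted p = 0.00994), a call lost without lung library 2 (0.057) or 3 (0.0501). That difference was also not called after scaling to T cell genes (-0.42, adjusted p = 0.227) or by median ratio (-0.62, 0.0662). Fitted on their own 6 libraries, lung minus bone marrow (adjusted p = 0.0651), lung minus spleen (0.0707) and lung minus lymph node (0.0842) were not called.

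Scaled to T cell genes, Fkbp5 averaged 36.2 ± 2.56 in blood, 36.7 ± 1.84 in lymph node and 33.2 ± 4.17 in liver. Blood minus liver became 0.13 (adjusted p = 0.679), blood minus spleen -0.36 (0.248) and blood minus lymph node -0.02 (0.969), and of the blood differences only that from bone marrow was called (-0.66, adjusted p = 0.0471). Blood minus lung took the other sign, at 0.40 (adjusted p = 0.191), and liver then lay below bone marrow (-0.79, adjusted p = 0.0185). In the annotation 4 noncoding genes overlap Fkbp5, 2 of them on the opposite strand; none exceeded 5.79% of its level in any library. The strand setting used in counting is not stated, so the split of reads between Fkbp5 and these genes is uncertain.

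Sgk1 encodes a kinase activated through mTORC2 and PDK1 that restrains Foxo factors and the ubiquitin ligase Nedd4l, and that is induced by salt as well as by steroid (chr10:21882184-21999903, plus strand, 13 annotated transcripts). It had the widest range of the 6 genes. The lung libraries held 148, 178 and 137 TPM (155 ± 21.4). The liver libraries held 67.5, 71.9 and 52.0 TPM (63.8 ± 10.4), the blood libraries 56.8, 60.8 and 59.1 TPM (58.9 ± 2.04) and the bone marrow libraries 58.5, 61.3 and 49.5 TPM (56.4 ± 6.20). The spleen libraries held 9.43, 8.62 and 8.79 TPM (8.95 ± 0.427) and the lymph node libraries 12.1, 12.6 and 8.70 TPM (11.2 ± 2.14). The libraries thus formed 3 levels that did not overlap: lung; liver, blood and marrow; and the secondary lymphoid organs, spleen and lymph node.

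Lung exceeded liver in Sgk1 by 1.27 on the log2 scale (SE 0.15, adjusted p = 7.1e-06), and bone marrow exceeded lymph node by 2.25 (SE 0.15, adjusted p = 8.8e-09). Liver minus blood was 0.10 (adjusted p = 0.637), blood minus bone marrow 0.07 (0.808) and lymph node minus spleen 0.27 (0.274). Blood exceeded spleen by 2.59 (adjusted p = 1.14e-09), a 6.58-fold ratio of mean TPM, and lung exceeded spleen by 3.96 (6.98e-12), a 17.3-fold ratio. On the T cell scale, blood (96.2 ± 1.66) exceeded liver by 0.84 (adjusted p = 0.000105) and bone marrow by 0.65 (0.0019), and the 3 levels became 4. Liver minus bone marrow took the other sign there, at -0.19 (adjusted p = 0.298). Of the genes with at least 10 TPM in their highest site, 93.5% had a smaller range of site means than Sgk1. The early response and heat shock list also separated the 4 upper sites from spleen and lymph node; its part in the Sgk1 difference was not tested.

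Ddit4 encodes REDD1, which inhibits mTORC1 through the TSC complex and is induced by glucocorticoid, low oxygen and energy stress (chr10:59949669-59951834, minus strand, 1 annotated transcript of 3 exons). Blood had the least. The blood libraries held 37.3, 37.4 and 40.9 TPM (38.5 ± 2.07), and the bone marrow libraries 84.7, 85.4 and 76.5 TPM (82.2 ± 4.94). Spleen held 110.2, 128 and 128 TPM (122 ± 10.2), lung 165, 149 and 153 TPM (156 ± 8.38), lymph node 150.3, 164 and 169.7 TPM (161 ± 9.94) and liver 191, 210.2 and 205 TPM (202 ± 10.3). Every organ library was above every blood library, and liver stood above every library of the other sites. Lung and lymph node overlapped.

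Ddit4 was lower in blood than in bone marrow by 1.07 on the log2 scale (log2 difference of blood minus marrow -1.07, SE 0.08, adjusted p = 4.02e-08) and lower than in liver by more (-2.36, SE 0.08, adjusted p = 1.71e-12). The steps from bone marrow to spleen (0.56, adjusted p = 5.09e-05) and from spleen to lung (0.35, 0.002) passed, and lymph node minus lung was 0.05 (0.659). Liver exceeded lymph node by 0.32 (adjusted p = 0.00521) and lung by 0.37 (0.00159); with weights for each library these had an adjusted p of 0.0772 and 0.126. On the T cell scale, blood still had the least (63.0 ± 3.88, against 89.2 ± 5.05 in bone marrow), all 5 blood differences were still called, and lung (160 ± 11.2) minus liver (170 ± 8.59) was -0.09 and not called (adjusted p = 0.405). Lung then exceeded lymph node by 0.42 (adjusted p = 0.000585), and with median-ratio scaling by 0.22 (0.0387), the opposite sign to the unscaled value. Spleen minus lymph node in Ddit4 was -0.14 after scaling to T cell genes (adjusted p = 0.386) and -0.21 with median-ratio scaling (0.129), and was called under neither.

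Txnip encodes an arrestin-like protein that binds thioredoxin and limits glucose uptake, and its transcription follows glucose through the factors MondoA and Mlx (chr3:96557957-96561883, plus strand). It was the most abundant of the 6 in every site except lung, where Tsc22d3 and Nr3c1 were higher on the same length-corrected TPM scale. The blood libraries held 911, 969 and 906 TPM (929 ± 35.0). Lymph node held 515, 522 and 552 TPM (529.96 ± 19.7), bone marrow 491, 469.9 and 505 TPM (489 ± 17.9), and spleen 473, 498 and 462 TPM (478 ± 18.7). Liver held 412, 369.9 and 395 TPM (392.4 ± 21.4) and lung 242, 227 and 229 TPM (233 ± 7.80). Blood stood far above the rest, lung far below, and the 3 middle sites lay close together.

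Blood exceeded lymph node in Txnip by 0.81 on the log2 scale (SE 0.05, adjusted p = 2.52e-09) and lung by 1.99 (SE 0.05, adjusted p = 6.91e-14). Spleen exceeded liver by 0.28 (adjusted p = 0.00049) and liver exceeded lung by 0.75 (1.72e-08). Lymph node minus bone marrow was 0.12 (adjusted p = 0.126) and bone marrow minus spleen 0.03 (0.729). Spleen minus lymph node was -0.15 (0.0623). On the T cell scale, blood held 1517 ± 29.8 and lung 238 ± 12.3; bone marrow (531 ± 25.0) then exceeded lymph node (391 ± 13.5) by 0.44 (adjusted p = 9.07e-06). Bone marrow also exceeded spleen by 0.325 on that scale (adjusted p = 0.000208), and spleen minus lymph node took the other sign, at 0.11 (0.259). Reads of the antisense gene Gm15441 cannot be told from those of Txnip where strand is ignored in counting; Gm15441 was at most 1.3% of the Txnip level.

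Set against the organs one by one, blood differed from each in at least 5 of the 6 genes, in both directions. Against lung, Tsc22d3 and Txnip were higher in blood and Nr3c1, Sgk1 and Ddit4 lower (43.7% of all genes called, 26.4% higher and 17.3% lower). Against liver, Tsc22d3 and Txnip were higher and Nr3c1, Fkbp5 and Ddit4 lower (39.4%, 23.3% higher and 16.1% lower). Against bone marrow the same 2 genes were higher and the same 3 lower as against liver (31.8%, 13% higher and 18.8% lower). Against spleen, Nr3c1, Tsc22d3, Sgk1 and Txnip were higher and Fkbp5 and Ddit4 lower (35.4%, 20.1% higher and 15.3% lower), and against lymph node, Tsc22d3, Sgk1 and Txnip were higher and Fkbp5 and Ddit4 lower (37.4%, 16.4% higher and 21% lower). These contrasts share the blood libraries. The median difference of the 6 genes was -0.81 against lung, where all genes tested had a median of 0.12, and 0.74 against spleen, where all genes had 0.00.

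Tsc22d3 and Txnip were higher in blood than in all 5 organs, as were 7.49% of all genes tested, and Ddit4 was lower than in all 5, as were 3.44%. These 3 directions held in each of the 5 contrasts under both scalings. Scaling to T cell genes raised blood against every organ, so it could not turn a gene that was already higher in blood. Of the 3, only Ddit4 could have turned under it. Median-ratio scaling also raised blood against every organ except lung, against which it moved Tsc22d3 only from 0.22 to 0.20. That scaling was therefore little test of a gene already higher in blood. Nr3c1 was higher in blood in 1 contrast and lower in 3, but higher in 3 and lower in 1 after scaling to T cell genes. Sgk1 was higher in 2 and lower in 1, and after that scaling higher in 4 and lower in 1.

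**Figure D2:**
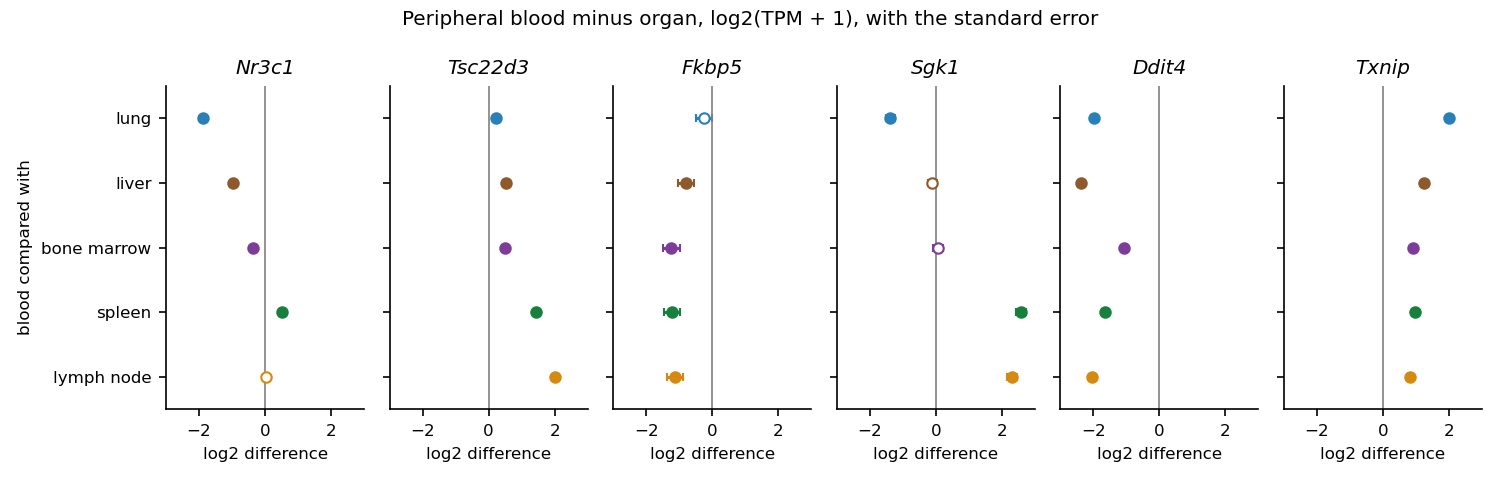
Difference between peripheral blood and each organ for the 6 genes, in log2(TPM + 1), with bars for the standard error of the limma fit; filled points passed an adjusted p under 0.05, open points did not, and the line marks 0. Tsc22d3 and Txnip lie right of 0 against all 5 organs, Ddit4 lies left of 0 against all 5, and Nr3c1 and Sgk1 lie on both sides.

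Among the organs, each pair with lung called 5 or 6 of the 6 genes, and the background shares of all genes called are given with each pair, in total and as higher and lower in the site named first. Lung against bone marrow and lung against spleen called 6 of 6 genes, with Nr3c1, Tsc22d3, Sgk1 and Ddit4 higher in lung and Fkbp5 and Txnip lower (43.5%, 13.2% and 30.3% of all genes against marrow; 40.8%, 18% and 22.8% against spleen). Lung against lymph node called 5, with Nr3c1, Tsc22d3 and Sgk1 higher and Fkbp5 and Txnip lower (42.3%, 14.9% and 27.4%), and lung against liver called 5, with Nr3c1, Tsc22d3 and Sgk1 higher and Ddit4 and Txnip lower (34.9%, 17.3% and 17.6%). Liver exceeded spleen and lymph node in Nr3c1, Tsc22d3, Sgk1 and Ddit4 and lay below both in Txnip, so 5 of 6 were called (31.3%, 14% and 17.3% against spleen; 31.1%, 9.45% and 21.6% against lymph node). Liver exceeded bone marrow in Nr3c1 and Ddit4 and lay below it in Txnip (34.5%, 9.36% and 25.1%). Bone marrow exceeded spleen and lymph node in Nr3c1, Tsc22d3 and Sgk1 and lay below both in Ddit4 (24.1%, 18.2% and 5.92% against spleen; 22.5%, 13.7% and 8.89% against lymph node). Between spleen and lymph node 3 genes were called: Tsc22d3 was higher in spleen, and Nr3c1 and Ddit4 were lower (14.3%, 4.44% and 9.87%). After scaling to T cell genes only the Tsc22d3 call was left.

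**Figure D3:**
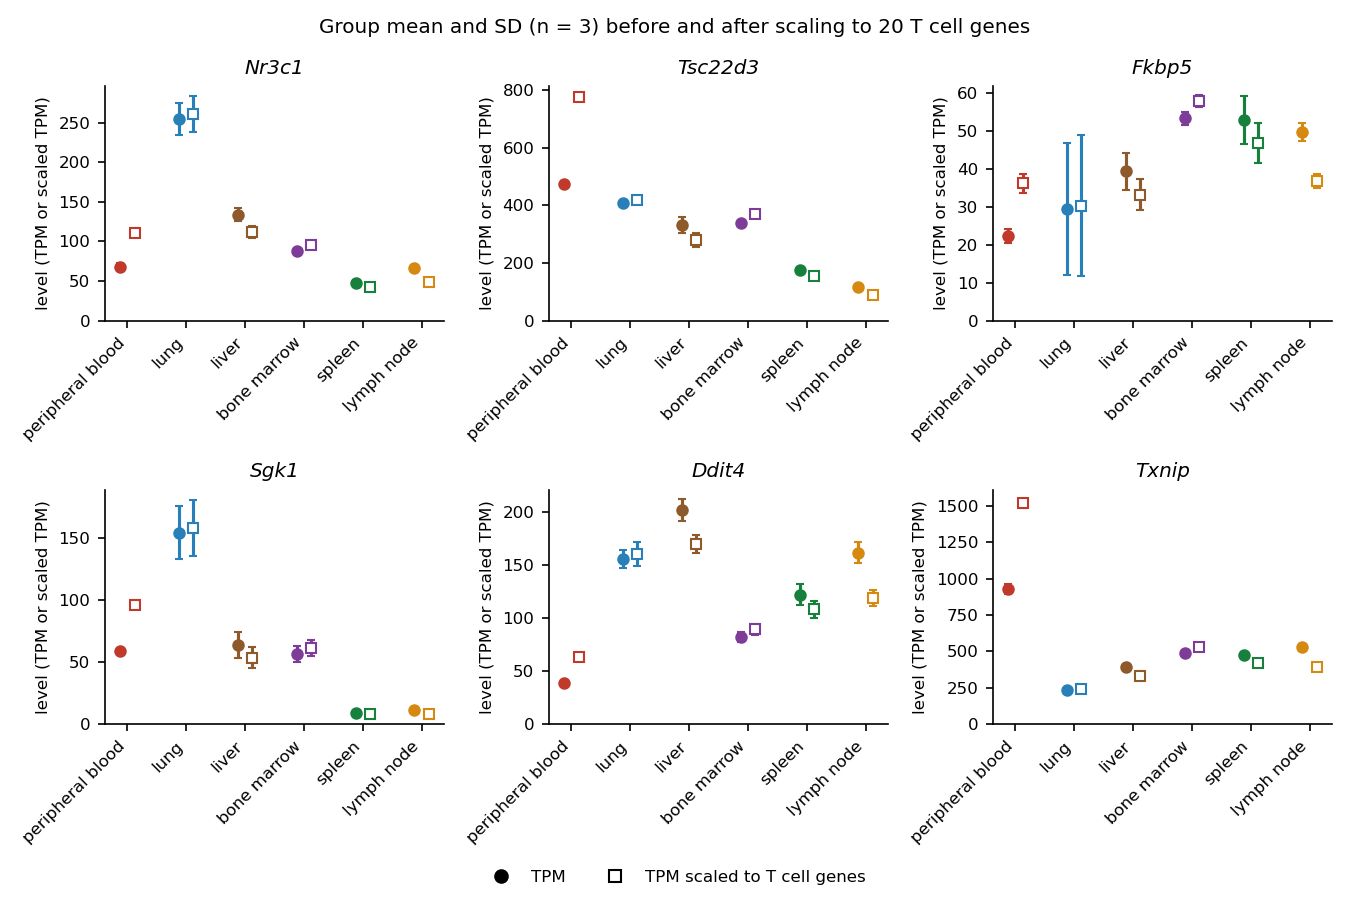
Site mean and SD (n = 3) of each gene as deposited (filled circles, TPM) and after scaling each library to equal expression of 20 T cell genes (open squares), on linear axes from 0. Scaling raises every blood value; Tsc22d3 and Txnip stay highest and Ddit4 lowest in blood, whereas Nr3c1 in blood moves from 68.0 to 111 and reaches the liver mean of 112.

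The 5 other genes were related to the receptor transcript in different ways. Over the 18 libraries, on the log2(TPM + 1) scale, Nr3c1 had a Pearson r of 0.84 with Sgk1, 0.54 with Tsc22d3, 0.39 with Ddit4, -0.37 with Fkbp5 and -0.76 with Txnip. Sgk1 and Tsc22d3 had an r of 0.88, and Ddit4 and Txnip one of -0.76. The libraries fall into 6 groups of 3 and share site, composition and preparation, so these values describe 6 points more than 18. Leaving out 1 site at a time kept r between 0.74 and 0.93 for Nr3c1 with Sgk1 and between 0.87 and 0.92 for Sgk1 with Tsc22d3. For Ddit4 with Txnip it ranged from -0.88 to -0.34, and for Nr3c1 with Txnip from -0.90 to -0.38.

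**Figure D4:**
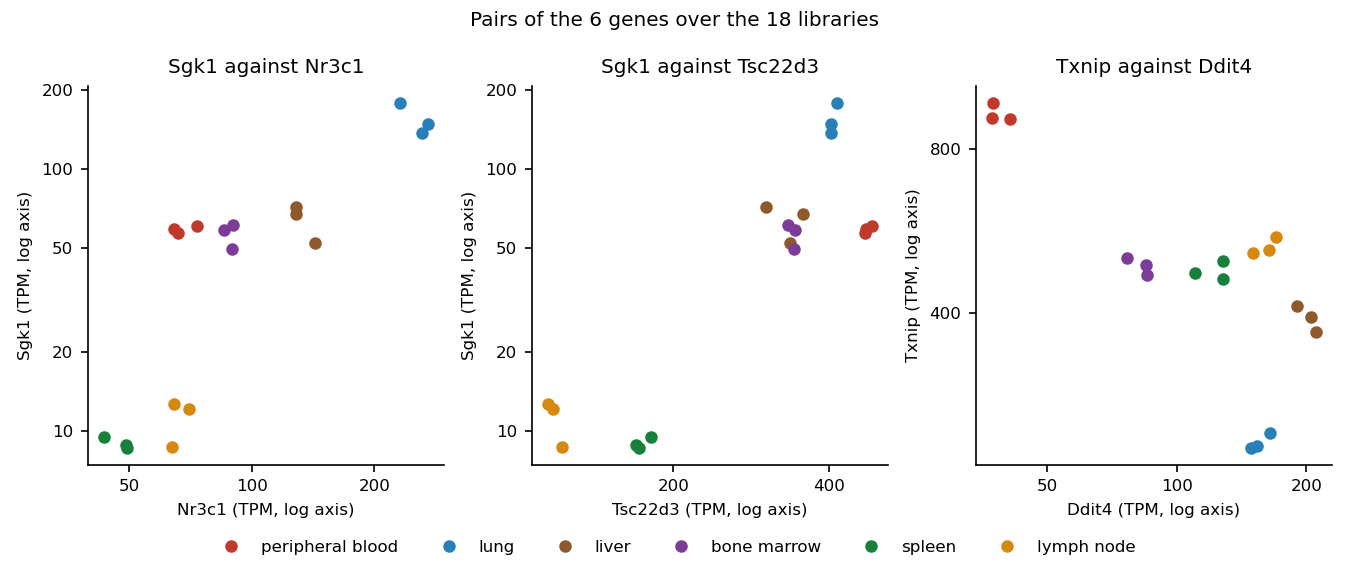
Pairs of genes over the 18 libraries, in TPM on log axes, coloured by site: Sgk1 against Nr3c1, Sgk1 against Tsc22d3 and Txnip against Ddit4. Lung has the most Nr3c1 and Sgk1 (231 TPM or more and 137 TPM or more), spleen and lymph node the least Sgk1, and blood sits alone with the most Txnip and the least Ddit4.

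The genes most like each of the 6 over the libraries were taken from 9400 genes with at least 10 TPM in their highest site. For Nr3c1 they were Fam117b (Pearson r = 0.982), the cytoplasmic actin Actg1 (0.979) and Zc3h12a (0.978), an RNase of inflammatory transcripts. For Tsc22d3 they were the stress-induced factor Atf3 (0.979) and the receptor genes Lilr4b (0.977) and Lilrb4a (0.976), close paralogs whose reads may be split uncertainly. Lilrb4a averaged 670 TPM in blood and 348 in bone marrow, the sites with the highest myeloid marker sums. It averaged 312 TPM in liver, 271 in lung, 46.1 in spleen and 12.6 in lymph node. The part of the myeloid markers here was not tested. Atf3, which is also in the early response list, averaged 2.30 TPM in spleen and 0.657 TPM in lymph node, against 33.1 TPM in bone marrow and 84.3 TPM in blood. For Sgk1 they were Tent5a (0.985), Rgs2 (0.97), a regulator of G protein signalling, and Tob1 (0.969), an antiproliferative protein. Rgs2 averaged 929 TPM in lung and 26.8 TPM in lymph node.

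For Ddit4 the nearest genes were the chemokine receptor Ccr8 (r = 0.967), the adaptor Sh2d2a (0.955) and the transmembrane adaptor Lime1 (0.945). Ccr8, a marker of activated Treg cells, averaged 0.507 TPM in blood, 52.7 TPM in lung and 91.3 TPM in liver. For Txnip they were H2-T24 (0.985), Slfn2 (0.985), a factor that keeps T cells quiescent, and the integrin chain Itgb2 (0.973). Slfn2 averaged 585 TPM in blood and 217 TPM in lung. Fkbp5 had the lowest such values, with Dis3l (0.91), Pdap1 (0.909) and Irf2bp1 (0.907).

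The chaperones that hold the receptor ready for hormone differed between sites. All 8 listed genes (Nr3c2, the mineralocorticoid receptor, and 7 chaperones and co-chaperones) were called by the F test, as were 68% of all genes. In blood 7 were lower than in liver with none higher, where 16.1% of all genes were lower and 23.3% higher. Against lung, 3 were higher in blood and 3 lower (26.4% and 17.3% of all genes). Scaled to T cell genes, these counts became 4 higher and 3 lower against liver, and 6 and 1 against lung. The shares just given do not apply there, since most calls over all genes were then higher in blood. Hsp90ab1, the constitutive Hsp90, averaged 753 ± 17.2 TPM in blood and 1071 ± 47.7 in lung, 1326 ± 28.1 in bone marrow, 1339 ± 2.00 in spleen, 1411 ± 3.00 in lymph node and 1772 ± 139 in liver. It was lower in blood in all 5 contrasts, by -0.51 to -1.23 on the log2 scale, but after scaling to T cell genes it was higher in 2 and lower in 2. Hsp90aa1, the inducible form, was highest in liver (1427 ± 164 TPM) and lung (962 ± 89.2) and averaged 356 ± 22.8 in blood. Hspa8, the constitutive Hsp70, was highest in liver at 3147 ± 34.4 TPM, and the co-chaperone Stip1 was lowest in lung at 55.6 ± 6.52 TPM. In liver the heat shock genes Hspa1b (2470 ± 261 TPM) and Hspa1a (1495 ± 128), which are close copies of each other, were also at their highest.

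All 9 coactivators and corepressors of nuclear receptors passed the F test, which called 68% of all genes. Ncoa3 was highest in lymph node (132 ± 6.07 TPM) and lowest in lung (59.7 ± 9.0), and the remodelling ATPase Smarca4 was highest in bone marrow (86.6 ± 1.05). Ep300, an acetyltransferase, averaged 81.6 ± 3.51 TPM in blood and 38.0 ± 11.1 in spleen. In lung, where Nr3c1 was highest, 6 of the 9 were lower than in lymph node and 1 was higher, where 27.4% of all genes were lower and 14.9% higher. Their median was -0.77 against -0.20 for all genes. Scaled to T cell genes, 4 were lower and 2 higher, counts to which the unscaled shares of all genes do not apply.

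Of the genes that set the supply of active steroid in a cell, 6 of 7 were tested and all 6 were called by the F test (68% of all genes). Cyp11b1, the final enzyme of corticosterone synthesis, was too low to test. Hsd11b1, which regenerates active steroid from its inert ketone, averaged 78.8 ± 3.81 TPM in bone marrow, 68.1 ± 3.32 in lymph node, 64.7 ± 6.75 in spleen, 51.8 ± 1.64 in blood, 45.3 ± 7.07 in liver and 28.1 ± 3.07 in lung. Its cofactor enzyme H6pd was also lowest in lung, at 6.60 ± 1.83 TPM. The steroid exporter Abcb1a was instead highest in lung, at 115 ± 5.19 TPM. It averaged 42.5 ± 6.39 TPM in liver, 34.3 ± 1.18 in bone marrow, 27.7 ± 0.412 in spleen, 14.7 ± 0.618 in lymph node and 6.16 ± 0.626 in blood. Abcb1a was lower in blood in all 5 contrasts (4 after scaling to T cell genes). Abcb1b averaged 45.5 ± 9.87 TPM in lung and at most 9.46 elsewhere. The lung thus held the most receptor transcript, the most exporter transcript and the least Hsd11b1.

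A second list held 20 genes known to be induced by glucocorticoid. Of 19 tested (Pdk4 was too low), 17 passed the F test, against 68% of all genes. Against spleen, 12 were higher in blood and 1 lower (20.1% and 15.3% of all genes), and against lymph node 11 were higher and 2 lower (16.4% and 21%). The medians were 0.77 and 1.24 where all genes had 0.00 and -0.15. Lung exceeded spleen in 14 of the 19 and lay below it in 1 (18% and 22.8% of all genes), and bone marrow exceeded spleen in 13 with none lower (18.2% and 5.92%). The list of 12 immediate early and heat shock genes shares Dusp1 with this list. Of those 12, 10 exceeded spleen in lung and 11 in bone marrow, with none lower, and in blood 8 were higher and 3 lower. Their part in the counts of the induced genes was not tested. Against lung, 7 of the 19 induced genes were higher in blood and 9 lower (26.4% and 17.3% of all genes), and against bone marrow 4 were higher and 9 lower (13% and 18.8%). On the T cell scale the counts against lung became 10 higher and 8 lower, and those against bone marrow 10 and 7. The shares of all genes given here are unscaled. On the T cell scale most calls over all genes were higher in blood, so the scaled counts cannot be read against those shares.

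The leading members of that list were unevenly distributed. Anxa1, an anti-inflammatory annexin that neutrophils and monocytes also carry in abundance, averaged 556 ± 18.5 TPM in bone marrow and 276 ± 13.6 in blood, then 42.6 ± 3.58 in lung and at most 20.2 elsewhere. Cebpb, a factor of myeloid cells and of tissue Treg cells, was higher in blood than in all 5 organs, at 239 ± 27.0 TPM. Its marrow mean was 160.3 ± 10.98 TPM and its lung mean 128.9 ± 9.69, a difference not called (lung minus marrow -0.31, adjusted p = 0.18). Liver followed with 74.9 ± 18.9 TPM, then spleen with 17.9 ± 4.92 and lymph node with 8.94 ± 0.978. Blood and bone marrow, where Anxa1 and Cebpb had their highest means, also had the highest myeloid marker sums, 27549 and 48203 TPM on average. Mean sums of these markers were far lower for lung (1711.5), spleen (755), liver (277) and lymph node (57.6). The part of the myeloid markers in these results was not tested. The metallothioneins Mt1 and Mt2 were highest in lung, at 140.1 ± 12.3 and 88.9 ± 22.9 TPM. Zbtb16, the factor PLZF, averaged 4.06 ± 0.076 TPM in blood and at most 0.59 elsewhere. It was higher in blood in all 5 contrasts. The cytotoxic cell markers also had their highest sum in blood, at 642 TPM against 84.3 to 122 TPM elsewhere. Their part in the Zbtb16 value was not tested. Nfkbia, the inhibitor of NF-κB, averaged 222 ± 3.91 TPM in blood and 881 ± 50.1 in liver, and was lower in blood in all 5, but after scaling to T cell genes was higher in 2 and lower in 3.

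Of 10 listed relatives and partners of Txnip, 9 passed the F test, which called 68% of all genes. In the 5 blood contrasts 3 to 5 were higher and 1 to 3 lower, where 13% to 26.4% of all genes were higher and 15.3% to 21% lower. Arrdc4, a related arrestin that MondoA also induces, averaged 27.0 ± 2.18 TPM in blood and 6.83 to 13.4 TPM elsewhere. It was higher in blood in all 5 contrasts. Arrdc3 averaged 95.5 ± 1.49 TPM in blood and 90.8 ± 12.1 in lung against 10.5 to 33.8 elsewhere, so unlike Txnip it was high in lung. The dimer partner Mlx was lowest in lung (19.5 ± 3.996 TPM).

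Around Ddit4, 7 of 11 tested genes of the mTORC1 pathway passed the F test, a share near the 68% of all genes, and Ddit4l, its close relative, was too low to test. Sesn2, a stress-induced inhibitor of mTORC1, was highest in blood (13.8 ± 0.918 TPM, higher in 4 of 5 contrasts), where Ddit4 was lowest. The arginine sensor Castor1 (10.1 ± 1.42 TPM) was lower in blood in 4 of 5, though in only 1 after scaling to T cell genes. Rheb, the activator of mTORC1, was highest in lung at 86.0 ± 14.3 TPM, and Sesn3 highest in lymph node at 81.7 ± 0.890 TPM.

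Around Sgk1, 11 of 12 tested genes passed the F test (68% of all genes did), and Sgk2 was too low to test. Sgk3 averaged 48.7 ± 3.43 TPM in blood and at most 14.5 elsewhere, and Akt1 164 ± 9.54 TPM in blood and 57.2 to 118 elsewhere. Both were higher in blood in all 5 contrasts. The transcript of Ndrg1, whose protein is a substrate of Sgk1, averaged 71.5 ± 1.74 TPM in blood and 60.8 ± 8.003 in lung against 14.4 to 28.4 elsewhere. The family of Tsc22d3 also differed: Tsc22d1 averaged 750.4 ± 11.2 TPM in blood against 61.2 ± 20.5 in lung and 17.4 to 34.2 elsewhere. Tsc22d1 was higher in blood in all 5 contrasts. The blood libraries also had the highest platelet marker sum; its part in the Tsc22d1 value was not tested. Tsc22d4 was lowest in lung (59.6 ± 2.60 TPM), and Tsc22d2 highest there (34.1 ± 6.46), so the family members were distributed in different ways.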

How the data were processed

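Per the labels' protocols, poly(A) RNA of sorted cells was isolated with RNAiso Plus and NucleoSpin columns, and strand-specific libraries were prepared with the NEBNext Ultra II Directional kit. Per the submitters' processing notes, STAR, RSEM and the mm10 build were used; versions, annotation and strand setting are not given in the sources used here. The authors deposited TPM values for 55487 Ensembl genes in each of 18 tables, and these were used as deposited. Because a TPM value is a share, abundant RNA of other cells lowers every T cell transcript. Depth cannot be read from TPM, so no counting intervals are given.

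Symbols and positions came from GENCODE M21 (GRCm38), which named 55141 of the 55487 genes. Promoter windows came from RefSeq (GRCm38.p6, the same build as mm10); they matched 5 of the 6 genes, without Nr3c1. The 50 bases after each start were left out.

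Expression was compared with limma 3.58.1 in R 4.3.3 on log2(TPM + 1), over 16694 genes whose mean reached 1 TPM in 1 or more sites, so differences of low genes are understated. All 6 genes passed that filter. All 18 libraries entered 1 model with a mean per site and no covariate (eBayes, trend and robust). P-values were adjusted by Benjamini-Hochberg over all genes of each contrast, with a threshold of 0.05. The 5 blood contrasts, the 10 contrasts between organs and an F test were computed. On simulated data the model was tested before use. The 20 T cell genes used for scaling, the pathway lists and the members were chosen with earlier results of these data known. Alternatives were a pseudocount of 0.1, no filter, a filter of 5 TPM, scaling to T cell genes, median-ratio scaling, library weights, fits of 2 sites alone, a replicate block and each library left out; fits without blood, and without blood and bone marrow, were added after seeing the data.

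Named beside the 6 genes were, of each list, up to 4 genes with the largest range of site means among those passing the F test with at least 10 TPM in the highest site; genes of the receptor and induced lists called the same way in all 5 blood contrasts; the 3 genes with the highest Pearson r to each of the 6; and markers of other cells. One gene that this rule names is not reported here. Other marker lists gave these highest mean sums by site. Blood had 611 TPM for B cells, 642 TPM for cytotoxic cells and 162 TPM for hepatocytes (27.9 TPM in liver). Of the 7 hepatocyte genes, however, only 2 averaged 1 TPM or more in blood, against 4 in liver. Erythroid genes reached 11469 TPM in liver, then 6467 TPM in bone marrow, and plasma cell genes 3387 TPM in spleen. Lung had 251 TPM for lung epithelium, 127 TPM for stroma and 3447 TPM for Treg genes.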

Additional observations from a re-analysis of the deposited data

How the results depend on the processing

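The 6 genes gave 90 differences between sites, of which 72 were called. Of all genes tested, 14.3% to 43.7% were called per pair of sites. Of the 72, 59 kept their direction and call under all of the 28 alternatives that could be computed for them. The other 13 did not, 2 of them on leaving out 1 library. A pseudocount of 0.1 and no filter changed none of the 90. Without 1 library, the number of the 6 genes called stayed within 1 of the full count for every pair of sites, and the F test called 10719 to 11846 of all genes. Without blood and bone marrow libraries, the F test called 7547 of 15680 genes tested, against 11348 with all. Scaled to T cell genes, 5 of the 6 genes were called between liver and bone marrow, against 3, and 1 between spleen and lymph node, against 3; the cause was not tested. As deposited, 34.5% and 14.3% of all genes were called for these pairs, and under that scaling neither count moved by more than 1.5 times. Signs changed under that scaling for Fkbp5 in blood minus lung (0.398) and minus liver (0.129), Sgk1 in blood minus liver (0.842) and liver minus bone marrow (-0.194), Nr3c1 in blood minus bone marrow (0.207), Ddit4 in lung minus lymph node (0.419), and Txnip in bone marrow minus lymph node (0.439) and spleen minus lymph node (0.114). Under median-ratio scaling they changed for Ddit4 in lung minus lymph node (0.219), Tsc22d3 in liver minus bone marrow (0.124), Fkbp5 (-0.121) and Txnip (-0.11) in bone marrow minus spleen, and Txnip in spleen minus lymph node (0.046). Leaving out 1 library turned 5 differences that were not called: Fkbp5 in blood minus lung ranged from -0.518 to 0.184 and in bone marrow minus spleen from -0.071 to 0.098, Sgk1 in blood minus bone marrow from -0.025 to 0.127, Nr3c1 in blood minus lymph node ranged from -0.016 to 0.081, and Tsc22d3 in liver minus bone marrow from -0.089 to 0.028. No other setting changed a sign. Counts over all genes moved by more than 1.5 times in these cases. Scaled to T cell genes they were 11411 for blood and liver (6580 as deposited), 9728 for blood and spleen (5912), 10153 for blood and lymph node (6249), 6226 for bone marrow and spleen (4031) and 6889 for bone marrow and lymph node (3764). Library weights gave 8930 for blood and bone marrow (5308), 10167 for blood and lymph node, 2760 for lung and liver (5818), 3035 for liver and spleen (5219), 7766 for bone marrow and lymph node and 4400 for spleen and lymph node (2390). Fits of 2 sites alone gave 8478, 9623, 1977, 2257, 7151 and 3771 for the same 6 pairs, and 3390 for liver and lymph node (5189). Spleen and lymph node gave 1567 without lymph node library 3 and 1295 without blood and bone marrow. The replicate numbers did not pair libraries across sites: deviations of same-numbered libraries had r from -0.034 to 0.03 over 45 pairs. With the replicate block 11192 genes passed the F test, and no call of the 6 genes changed.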
